A study of Mus musculus with 12 samples.

Results

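The genes of the major histocompatibility complex (MHC) and its antigen processing partners were followed through the small intestine of mice with and without necrotizing enterocolitis (NEC), a disease of newborns in which stretches of bowel become inflamed and die. They were taken by name from the deposited tables: every protein-coding row whose symbol starts with H2-, other than H2-Ke, and 10 partner genes, B2m, Tap1, Tap2, Tapbp, Psmb8, Psmb9, Psmb10, Nlrc5, Cd74 and Ciita. That gave 43 of 54532 genes. Of these, 32 belong to class I (24 H2 genes and 8 partners) and 11 to class II (9 H2 genes with Cd74 and Ciita). All 12 libraries came from C57BL/6J mice, 3 in each of 4 groups. Piezo1 flox mice (floxed control) carry floxed Piezo1. Piezo1 CKO mice are labelled as knocked out for Piezo1, a mechanically gated cation channel, in intestinal epithelial cells. Each genotype was sampled as control and after NEC induction. The labels do not state the promoter that drives the deletion, the way NEC was induced, the age of the mice or whether each library is a separate mouse, so p-values measure the spread between these libraries only.

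MHC class I molecules are made of a heavy chain and beta-2 microglobulin (B2m) and show peptides from inside the cell to CD8 T cells and NK cells. Proteasomes cut the peptides, with Psmb8, Psmb9 and Psmb10 as the catalytic subunits of the interferon-inducible immunoproteasome. The transporter Tap1/Tap2 carries them into the endoplasmic reticulum, where tapasin (Tapbp) loads them. Class II molecules show peptides from endosomes to CD4 T cells. Their chains assemble on the invariant chain (Cd74), H2-DM exchanges the peptides and H2-O restrains H2-DM. Nlrc5 and Ciita are the coactivators that drive class I and class II promoters. In the gut, class I is made by most cells, whereas class II is made by B cells, dendritic cells, macrophages and, under interferon gamma, by the epithelium.

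Of the 43 genes, 38 lie on chromosome 17 in GRCm38 coordinates, with the 33 H2 genes between 33996017 and 37483552. The promoter windows of 6 members are shown to let the letters of light chain, heavy chain, transporter and class II promoters be compared. Each window holds the 250 bases before and the 50 bases after the start in RefSeq (GRCm38.p6), read 5′ to 3′ on the gene's strand. Capitals mark the Y box, CCAAT or its reverse complement ATTGG, which binds NF-Y in MHC promoters, and the core of the interferon-stimulated response element (ISRE), which is GAAA, any 2 bases and GAAA again, or its reverse complement. The windows are at chr2:122147437-122147736 (+) for B2m, chr17:35262844-35263143 (+) for H2-D1, chr17:36032652-36032951 (-) for H2-T23, chr17:36190102-36190401 (-) for H2-T3, chr17:34187306-34187605 (+) for Tap1 and chr17:34287774-34288073 (-) for H2-Aa.
B2m: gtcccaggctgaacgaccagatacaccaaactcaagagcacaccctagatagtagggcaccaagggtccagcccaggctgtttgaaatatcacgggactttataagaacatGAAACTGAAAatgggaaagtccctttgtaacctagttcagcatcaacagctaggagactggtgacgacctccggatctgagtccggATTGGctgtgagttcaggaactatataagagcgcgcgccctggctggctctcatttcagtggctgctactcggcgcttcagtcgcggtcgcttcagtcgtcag
H2-D1: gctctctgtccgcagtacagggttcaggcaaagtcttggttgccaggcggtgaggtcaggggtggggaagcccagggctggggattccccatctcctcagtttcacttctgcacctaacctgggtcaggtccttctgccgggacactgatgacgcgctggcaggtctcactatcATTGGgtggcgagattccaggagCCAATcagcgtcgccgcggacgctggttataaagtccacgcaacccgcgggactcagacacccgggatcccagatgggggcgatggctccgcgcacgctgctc
H2-T23: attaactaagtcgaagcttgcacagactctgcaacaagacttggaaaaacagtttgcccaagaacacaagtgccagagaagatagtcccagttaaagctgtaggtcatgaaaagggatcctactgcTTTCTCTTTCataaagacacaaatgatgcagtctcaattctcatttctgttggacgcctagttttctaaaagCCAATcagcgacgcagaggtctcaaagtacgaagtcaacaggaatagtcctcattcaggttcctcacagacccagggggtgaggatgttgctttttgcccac
H2-T3: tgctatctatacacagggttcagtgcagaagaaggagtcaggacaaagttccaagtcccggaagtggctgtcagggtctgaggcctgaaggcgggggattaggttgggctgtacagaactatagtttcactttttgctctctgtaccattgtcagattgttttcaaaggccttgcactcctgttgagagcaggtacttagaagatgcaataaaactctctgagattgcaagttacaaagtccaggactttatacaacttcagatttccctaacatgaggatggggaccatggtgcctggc
Tap1: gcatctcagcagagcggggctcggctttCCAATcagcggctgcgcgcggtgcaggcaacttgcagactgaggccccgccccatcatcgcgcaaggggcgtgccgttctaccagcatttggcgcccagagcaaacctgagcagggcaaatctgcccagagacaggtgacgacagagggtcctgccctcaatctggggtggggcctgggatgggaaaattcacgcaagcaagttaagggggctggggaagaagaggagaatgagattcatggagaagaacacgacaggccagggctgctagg
H2-Aa: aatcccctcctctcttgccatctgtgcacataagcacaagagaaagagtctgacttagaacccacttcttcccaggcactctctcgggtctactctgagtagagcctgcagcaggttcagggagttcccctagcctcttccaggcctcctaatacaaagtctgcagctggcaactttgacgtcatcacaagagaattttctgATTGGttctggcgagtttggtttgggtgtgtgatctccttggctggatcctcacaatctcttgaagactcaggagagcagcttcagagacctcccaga

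A Y box on either strand was found in 31 of the 36 members that have a RefSeq window, 23 of 28 in class I and 8 of 8 in class II, against 37.4% of 32851 windows of all genes. Members were counted by gene, with a match in any window of the gene, and all genes by window, so the shares are not strictly alike. H2-DMa holds a Y box in window 2 and not in window 1. In H2-Aa the Y box begins 48 bases before the start, in B2m 53, in H2-T23 52 and in H2-D1 76 and 53. The ISRE core was found in 3 of 36, B2m, H2-T23 and H2-T22, against 3.44% of all windows. B2m holds it 139 bases before the start and H2-T23 124 bases before it. In the Tap1 window the Y box begins 222 bases before the start. The window of H2-T3 holds neither motif in these exact letters. Only exact matches were searched, so the counts do not show that a promoter lacks either element. Near matches, such as tttcacttct in the H2-D1 window and tttcactttt in that of H2-T3, were not counted. Tap1 and Psmb9 lie head to head, and their windows share 275 bases, so the Tap1 window shown is largely that of Psmb9 as well. A match is a description of these letters and not of binding. Ciita, Tap2, Cd74, H2-T24, H2-Ab1, Nlrc5 and H2-Q1 had no window in the table used.

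Each library held 13057724 to 16821130 reads. The authors gave FPKM (fragments per kilobase of gene, scaled to library size) in 2 tables, control and NEC, and levels below are FPKM put on 1 scale shared by the 12 libraries. Condition and table are the same split, so NEC and any effect of the table cannot be told apart. Vil1, a brush border gene, lay at 252 to 455 FPKM in all libraries. Epcam, another epithelial gene, lay at 682 to 1174 FPKM in flox control and 1228 to 1775 in CKO control. In NEC it lay at 509 to 575 in flox and 477 to 827 in CKO. Piezo1 stood at 1.12 to 1.49 FPKM in flox control and 0.957 to 1.77 in CKO control, which overlap, and at 6.27 to 6.79 in flox NEC against 3.06 to 5.16 in CKO NEC. The knockout is labelled for the epithelium only, so CKO below means the libraries labelled so. In whole tissue, fewer cells of a type and less RNA per cell cannot be told apart.

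B2m and the classical heavy chains were the most abundant members. Averaged over 3 libraries, flox control held 962 ± 84.0 FPKM of B2m, 457 ± 64.9 of H2-D1 and 296 ± 38.3 of H2-K1 (mean ± SD, n = 3). The invariant chain Cd74 was the leading class II gene at 91.5 ± 39.5 FPKM. Of the class I genes, 13 had a mean of at least 5 FPKM over the 12 libraries, 6 lay between 1 and 5 and 13 under 1. H2-D1, H2-K1 and H2-Q2 made up 42.5 to 47.4%, 27.1 to 30.1% and 5.12 to 11% of the summed class I heavy chains in flox control. Most M region genes were scarce or undetected. H2-M3 lay highest, with a mean of 1.78 FPKM, whereas H2-M1, H2-M11, H2-M10.1, H2-M10.3, H2-M10.4 and H2-M10.5 had 0 reads in all 12 libraries, which allows up to 3 reads, or 0.104 to 0.215 FPKM, by counting error alone. Genes of that group are known from the vomeronasal organ. H2-M9, H2-M5, H2-M10.6 and H2-M10.2 reached at most 0.382, 0.415, 0.307 and 0.0496 FPKM, and H2-M2 and H2-Q7 0.045 to 1.42 and 0.172 to 1.2 FPKM.

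**Figure D1:**
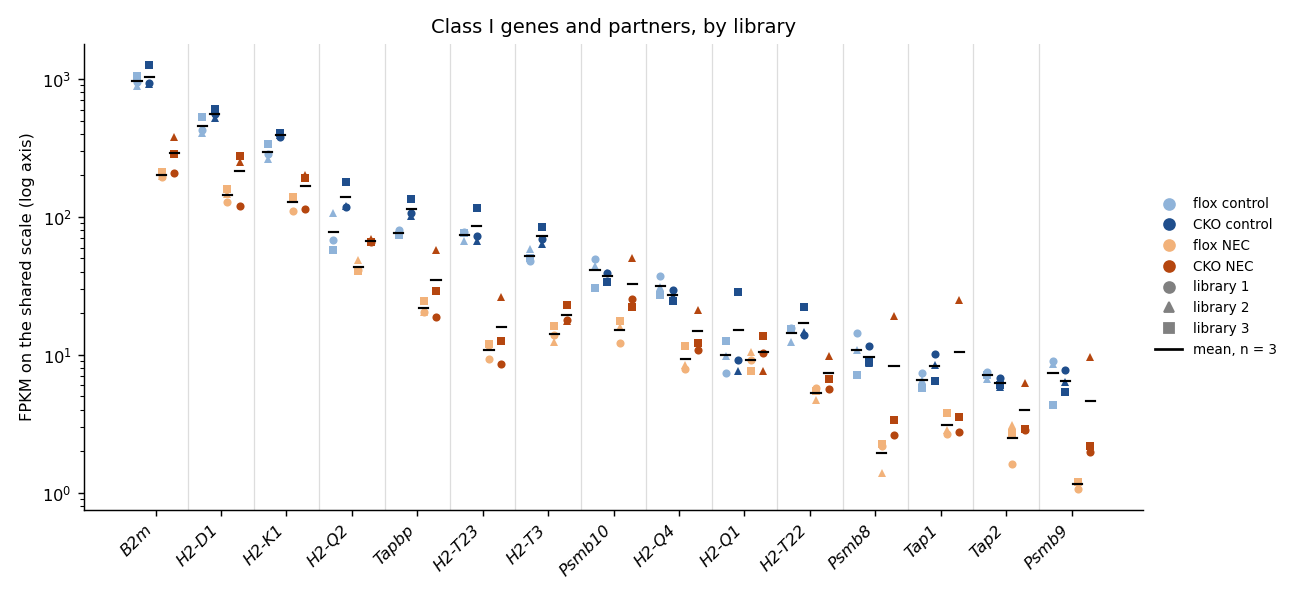
FPKM on the shared scale (log axis) of 15 class I genes in every library, by group, with the library number as the marker shape and a bar at the mean of 3. B2m, H2-D1 and H2-K1 lie at the top, and CKO NEC library 2 stands above the other NEC libraries for Tap1, Psmb8 and Psmb9.

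NEC tissue held far less class I message than control tissue. In flox mice 16 of the 19 class I genes tested fell and 0 rose, with a median difference of -1.29 in log2(FPKM + 1), against 0.01 over all 13815 genes (limma, adjusted p under 0.05). The other 13 of the 32 stayed under the filter of 1 FPKM in 3 libraries. The background of that comparison is wide: 27.7% of all genes were called lower and 28.6% higher. Higher genes were 50.8% of all calls on the shared scale, 61.1% on the deposited FPKM and 67.2% scaled by total reads. The 3 libraries of each group did not overlap in 17 of 19 genes, always with NEC lower, where 31.5% of all genes did so.

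The light chain and the classical heavy chains fell together. In flox, B2m reached 950, 884 and 1051 FPKM in the control libraries and only 196, 197 and 210 FPKM in the NEC libraries. In CKO these were 938, 928 and 1263 FPKM and then 208, 380 and 284 FPKM. All 6 NEC libraries were below all 6 control libraries, a 4.78-fold drop of the mean in flox (log2 difference -2.25 ± 0.13 SE, adjusted p = 5.2e-05) and 3.59-fold in CKO (-1.87 ± 0.28, adjusted p = 0.00423).

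H2-D1 stood at 430, 410 and 531 FPKM in flox control and at 128, 147 and 160 in flox NEC. The CKO libraries gave 556, 523 and 608 in control and 120, 250 and 278 in NEC. Its groups did not overlap in either genotype, with differences of -1.64 ± 0.15 (adjusted p = 0.000186) and -1.46 ± 0.33 (adjusted p = 0.0135). H2-K1 fell less, from 288, 262 and 337 to 110, 138 and 140 FPKM in flox and from 382, 391 and 408 to 114, 201 and 191 in CKO. These are 2.29-fold and 2.33-fold drops of the mean (adjusted p = 0.000654 and 0.00871). All NEC libraries again lay under all control libraries.

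Among the class I genes tested H2-T23 fell the most. It encodes Qa-1, the ligand of the CD94/NKG2 receptors of NK and T cells. It went from 77.7, 66.9 and 76.5 FPKM in flox control to 9.32, 11.3 and 12 in flox NEC, and from 73.3, 66.7 and 117 to 8.61, 26.3 and 12.7 in CKO. That is a 6.77-fold and a 5.39-fold drop of the mean (-2.66 ± 0.13, adjusted p = 4.48e-05, and -2.46 ± 0.39, adjusted p = 0.00502), the largest log2 differences among class I genes in both genotypes. H2-T3 encodes the TL antigen, known from the small intestinal epithelium, where it meets CD8αα on intraepithelial lymphocytes.

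H2-T3 stood at 47.7, 58.2 and 50.5 FPKM in flox control and at 14.0, 12.4 and 16.2 in flox NEC. In CKO it stood at 69.4, 64.1 and 84.7 in control and at 17.8, 17.5 and 23.1 in NEC. The differences were -1.81 ± 0.13 and -1.85 ± 0.17, and H2-T3 had the smallest adjusted p of the class I genes in CKO, 0.00136. It was also one of 4 members of at least 1 FPKM that did not peak in CKO NEC library 2 (below).

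H2-T22, a ligand of some gamma delta T cell receptors, went from 15.5, 12.4 and 15.4 FPKM to 5.70, 4.73 and 5.47 in flox (-1.29 ± 0.13) and from 14.0, 14.5 and 22.2 to 5.69, 9.83 and 6.70 in CKO (-1.09 ± 0.24). H2-T24 was scarcer, at 2.5, 2.21 and 2.39 against 0.740, 0.676 and 1.25 in flox and 3.66, 2.75 and 3.01 against 1.16, 1.51 and 0.582 in CKO. Both fell in both genotypes, with adjusted p between 0.000228 and 0.0122, and neither overlapped between its groups.

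The Q region behaved unevenly. H2-Q4 went from 37.1, 31.2 and 26.9 FPKM to 7.93, 8.47 and 11.5 in flox (-1.67 ± 0.17, adjusted p = 0.000273) and from 29.4, 26.7 and 24.7 to 10.9, 21.3 and 12.1 in CKO (-0.88 ± 0.24, adjusted p = 0.0259). H2-Q2 stood at 68.0, 106 and 57.3 against 41.1, 48.7 and 40.3 in flox (-0.77 ± 0.22, adjusted p = 0.0203) and at 119, 120 and 179 against 65.8, 69.4 and 65.5 in CKO (-1.02 ± 0.19, adjusted p = 0.00777). Every NEC library was below the control libraries of its genotype for both genes, although the call of H2-Q2 in flox was lost scaled by total reads (adjusted p = 0.109), under quantile normalization (0.149) and with no filter (0.0542), and without flox NEC library 1 or 3 (0.064 and 0.0653). That of H2-Q4 in CKO was lost scaled by total reads (0.108), under quantile normalization (0.0877), with no filter (0.0644), and without CKO control library 1 (0.0728) or 2 (0.0651) or CKO NEC library 1 (0.0768) or 3 (0.0697).

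H2-Q6 passed the test in flox and not in CKO: 5.07, 2.21 and 2.78 FPKM against 0.646, 0.769 and 1.18 (-1.18 ± 0.25, adjusted p = 0.00534), and in CKO 2.87, 1.95 and 2.07 against 0.476, 3 and 0.609 (-0.63 ± 0.37, adjusted p = 0.219). H2-Q1 did not follow the others. It stood at 7.39, 9.86 and 12.6 FPKM in flox control and 9.15, 10.6 and 7.60 in flox NEC, and at 9.15, 7.67 and 28.6 and then 10.4, 7.65 and 13.6 in CKO. Those groups overlap, and the differences were -0.10 ± 0.20 and -0.29 ± 0.46 (adjusted p = 0.683 and 0.643), with signs that turned when scaled by total reads and, in flox, on deposited FPKM. H2-M3, which presents formylated bacterial peptides, and H2-Q10, known as a secreted liver product, did not pass either (adjusted p = 0.0661 and 0.964 in flox). Shared sequence limits the split among Q genes: 12% of the 100-base stretches of H2-Q7 transcripts, 10.8% of H2-Q6, 8.05% of H2-Q1, 5.09% of H2-Q2, 8.86% of H2-T22 and 3.59% of H2-D1 also occur in another gene, and the labels do not state how such reads were assigned.

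The peptide supply line fell as well in flox NEC. Tapbp stood at 79.9, 76.3 and 73.4 FPKM in flox control and at 20.4, 20.3 and 24.6 in flox NEC, and at 106, 101 and 135 and then 18.7, 57.5 and 29.1 in CKO. It fell 3.51-fold and 3.25-fold by the means, with no overlap (-1.77 ± 0.11, adjusted p = 8.07e-05, and -1.81 ± 0.37, adjusted p = 0.0103). The 3 immunoproteasome subunits and both transporter chains were called in flox and not in CKO, a difference between genotypes that did not itself pass a test (below). Psmb8 went from 14.4, 10.9 and 7.10 FPKM to 2.16, 1.38 and 2.26 in flox, a 5.58-fold drop (-1.97 ± 0.24, adjusted p = 0.000555). In CKO it stood at 11.5, 8.70 and 8.93 and then at 2.60, 19.1 and 3.35, and the difference of -0.65 ± 0.60 did not pass (adjusted p = 0.423).

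Psmb9 went from 9.05, 8.59 and 4.32 FPKM to 1.07, 1.19 and 1.2 in flox (-1.90 ± 0.24, adjusted p = 0.000607), and stood at 7.79, 6.31 and 5.38 and then 1.97, 9.69 and 2.17 in CKO (-0.67 ± 0.47, adjusted p = 0.287). Psmb10 went from 49.4, 44.2 and 30.4 to 12.1, 16 and 17.7 in flox (-1.37 ± 0.21, adjusted p = 0.00134), and stood at 39.1, 39.3 and 33.8 and then 25.5, 50.3 and 22.3 in CKO (-0.28 ± 0.29, adjusted p = 0.478). For all 3 subunits CKO NEC library 2 was above every library of CKO control, while CKO NEC libraries 1 and 3 were below them.

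Tap1 showed the same layout, with 7.43, 6.52 and 5.70 FPKM against 2.68, 2.87 and 3.79 in flox (-0.88 ± 0.14, adjusted p = 0.00181) and 10.2, 8.36 and 6.50 against 2.75, 25.1 and 3.56 in CKO (-0.27 ± 0.68, adjusted p = 0.772). Tap2 stood at 7.52, 6.69 and 7.13 against 1.62, 3.10 and 2.72 in flox (-1.24 ± 0.17, adjusted p = 0.000944) and at 6.76, 5.80 and 6.06 against 2.84, 6.22 and 2.90 in CKO (-0.59 ± 0.25, adjusted p = 0.0971). The CKO groups overlap in both genes through library 2 alone. With all 4 groups in 1 fit the flox call of Tap1 was lost (adjusted p = 0.2).

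In CKO, 10 of 19 class I genes tested fell and 0 rose, with a median of -0.88 against -0.02 over 13431 genes, where 20.3% of all genes were called lower and 17.4% higher. Higher genes were 46.1% of the calls on the shared scale, 60.4% on the deposited FPKM and 73.6% scaled by total reads. The groups did not overlap in 11 genes, NEC lower in each, against 28.6% of all genes. All 10 were also among the 16 called in flox, or 62.5% of that list. The remaining 6 were Psmb8, Psmb9, Psmb10, Tap1, Tap2 and H2-Q6.

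**Figure D2:**
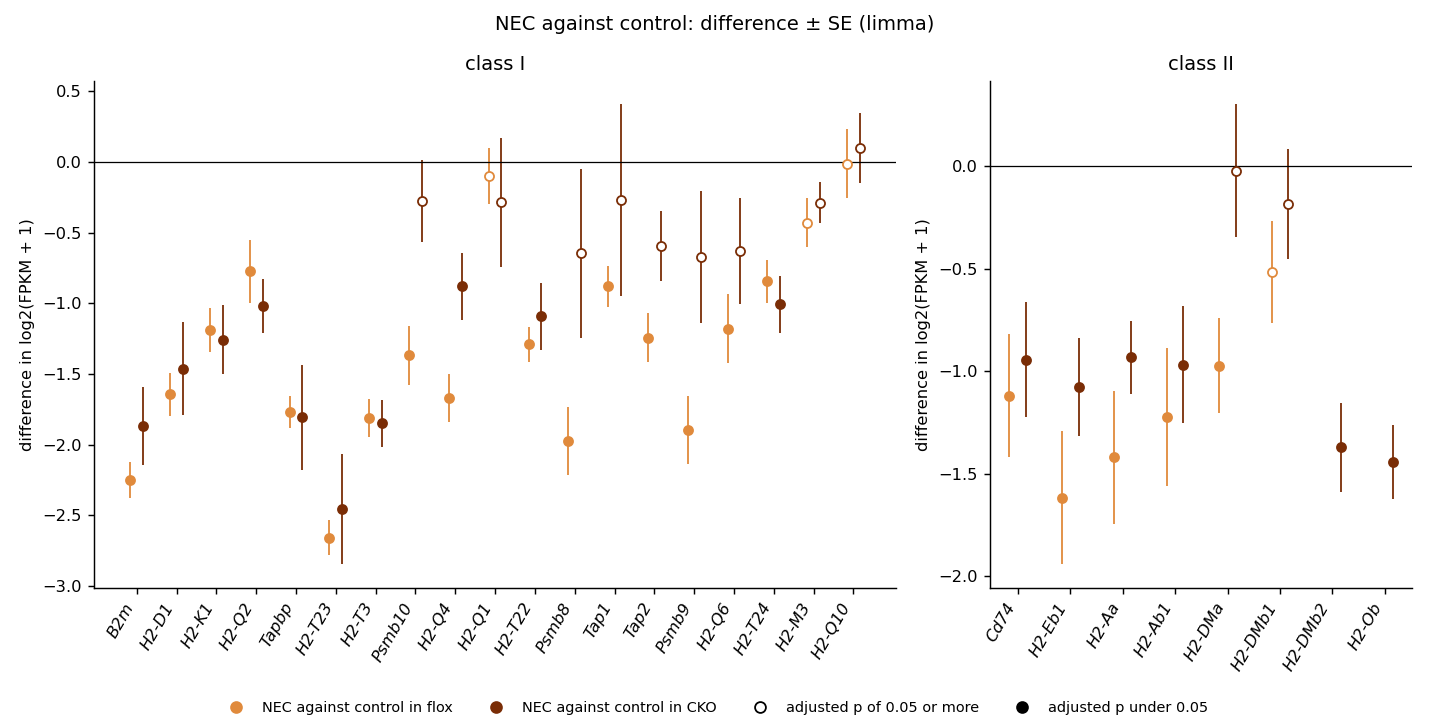
Difference between NEC and control in log2(FPKM + 1), with its standard error, for every class I and class II gene tested, in flox and in CKO, filled where the adjusted p was under 0.05. H2-T23 shows the largest differences (-2.66 and -2.46), and Psmb8, Psmb9, Psmb10, Tap1, Tap2 and H2-Q6 are filled in flox only. H2-Ob and H2-DMb2, filled in CKO, reached 1 FPKM in CKO control alone.

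Those 6 calls turned on a single library. CKO NEC library 2 was the highest of the 6 NEC libraries in 18 of the 22 class I genes that reached 1 FPKM in any of them, and in 6 of 6 class II genes. The share of all genes that were highest in that library is not given here, so these counts do not show a trait of MHC genes alone. Nlrc5, the class I coactivator, was at 3.20 FPKM there (461 reads) and at 0.0779 to 0.182 in the other 5 (11 to 23 reads), a ratio of 17.6 to the next highest. The same ratio was 6.63 for Tap1, 5.69 for Psmb8, 4.46 for Psmb9 and 1.97 for Psmb10, but 1.34 for B2m, 1.05 for H2-K1 and under 1 for H2-D1 and H2-T3 (0.897 and 0.757). Of the interferon gamma pathway genes, Irf1 stood at 29.2 FPKM against at most 15.3 in the other NEC libraries and Socs1, a feedback inhibitor, at 1.30 against at most 0.529. Ifng itself was at 0.0911 FPKM in that library and at 0 in the other 11, too low a level to carry weight. Not all genes of the pathway were high there. The receptor genes Ifngr1 and Ifngr2 stood at 49.8 and 44.6 FPKM, against at least 52.4 and 48.8 in the other NEC libraries. Jak2, a receptor kinase gene, was also the lowest of the 6 NEC libraries there. Stat2 and Irf9 were the highest there, and Jak1 and Irf2 lay within the range of the others. In CKO NEC library 2 Cd274, the PD-L1 gene, was 8.27 times the level of the next NEC library. The sums of the T and NK cell markers in CKO NEC libraries 1, 2 and 3 were 1.48, 2.24 and 1.70 FPKM. Single markers of that list went both ways in library 2. Trac and Cd3e were the lowest of the 6 NEC libraries there, at 0.189 and 0 FPKM, and Gzma the highest, at 0.586. The B cell gene Cd79a stood at 0.0379, 0.243 and 0.184 in CKO NEC. Library 2 was thus the highest of CKO NEC in that sum and in Cd79a, within the flox NEC ranges of 1.88 to 4.24 and 0.0880 to 1.19. Other B cell genes, all low, also went both ways. In CKO NEC, Pax5 stood at 0, 0.0600 and 0.0227 FPKM and Cr2 at 0.0408, 0.00727 and 0.0247. The part of these genes in the class I levels of that library was not tested.

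Without that library, 16 of 19 class I genes were called lower in CKO NEC. They were the 10 above and the 6 above, the same 16 as in flox, while 13.7% of all genes tested were called lower in that fit. H2-Q6 then passed the filter through CKO control alone, with 0.476 and 0.609 FPKM in CKO NEC libraries 1 and 3. It therefore had to differ, and its call in that fit carries no weight. The class I median was then -1.16. Psmb8 then differed by -1.43 ± 0.18 (adjusted p = 0.00811), Psmb9 by -1.27 ± 0.18 (0.01), Tap1 by -1.16 ± 0.21 (0.017), Tap2 by -0.89 ± 0.14 (0.0122) and Psmb10 by -0.62 ± 0.15 (0.035). With it, the test of whether the NEC difference itself differs between genotypes called 0 of 20 class I genes and 0 of 9 class II genes, where 0.775% of all 14707 genes were called, 0.15% higher and 0.626% lower. The number called, 114, was between 0 and 2 when any 1 of 9 of the 12 libraries was left out, 44 without CKO NEC library 3, 286 without CKO control library 3 and 529 without flox control library 3. Higher genes were 19.3% of those calls, 36% scaled by total reads and 36.3% under quantile normalization. The smallest p-values were those of Psmb10 (1.09 ± 0.39, adjusted p = 0.146) and H2-Q4 (0.79 ± 0.32, adjusted p = 0.187) in class I and of H2-DMa (0.95 ± 0.44, adjusted p = 0.247) and H2-Eb1 (0.54 ± 0.45, adjusted p = 0.539) in class II. Without CKO NEC library 2 these were 0.74 ± 0.28, 0.51 ± 0.23, 0.63 ± 0.38 and 0.31 ± 0.45. Unadjusted, 2 class I genes and 0 class II genes were under 0.05, as were 20.7% of all genes.

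**Figure D3:**
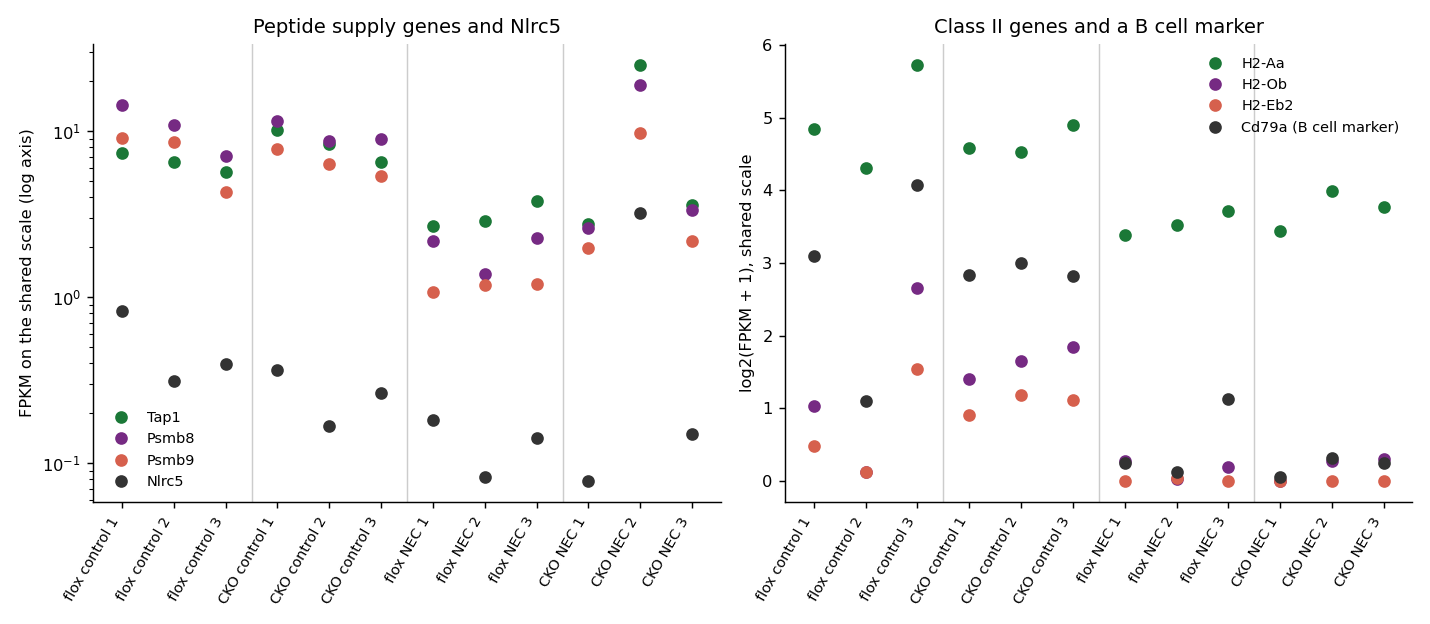
Left, FPKM on the shared scale (log axis) of Tap1, Psmb8, Psmb9 and Nlrc5 in the 12 libraries. Right, log2(FPKM + 1) of H2-Aa, H2-Ob, H2-Eb2 and the B cell marker Cd79a. CKO NEC library 2 stands out on the left, with Nlrc5 at 3.20 FPKM, and flox control library 3 is the highest on the right, with Cd79a at 15.7 FPKM.

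Class II genes were lower in NEC too, on a lower and more scattered base. Of the 6 class II genes at 1 FPKM or more in all 12 libraries, 5 fell in flox and 4 in CKO. Calls lower over all genes were 27.7% and 20.3%, as above. The other members, 5 in flox and 3 in CKO, stayed under the filter. H2-Ob and H2-DMb2 passed it in CKO through the control libraries alone, so they had to differ, and are given below by their levels. H2-Aa, H2-Eb1, H2-Ab1 and Cd74 were called in both genotypes.

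The A and E chains form the class II dimers, and C57BL/6 mice lack a functional E alpha chain. H2-Aa, the A alpha chain, went from 27.7, 18.9 and 51.9 FPKM in flox control to 9.45, 10.5 and 12.1 in flox NEC, and from 23.0, 22.0 and 28.7 to 9.86, 14.9 and 12.7 in CKO. It did not overlap between conditions (-1.42 ± 0.32, adjusted p = 0.00774, and -0.93 ± 0.18, adjusted p = 0.00828). H2-Eb1 went from 36.0, 26.2 and 66.4 to 12.7, 9.53 and 15.3 in flox (-1.62 ± 0.33, adjusted p = 0.00448) and from 28.6, 30.6 and 37.5 to 10.3, 20.5 and 14.8 in CKO (-1.07 ± 0.24, adjusted p = 0.0133). H2-Eb1 was the class II gene with the largest fall in flox, and its groups did not overlap.

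H2-Ab1, the A beta chain, had control levels of 26.4, 17.4 and 41.0 FPKM and NEC levels of 8.39, 9.24 and 16.3 in flox (-1.22 ± 0.34, adjusted p = 0.0168), and 24.9, 21 and 30.2 against 8.19, 19.1 and 11.8 in CKO (-0.97 ± 0.29, adjusted p = 0.0345). Cd74 stood at 85.2, 55.5 and 134 against 35.8, 35.1 and 47.4 in flox (-1.12 ± 0.30, adjusted p = 0.0152) and at 75.9, 72.8 and 73.5 against 24.8, 57.8 and 38.4 in CKO (-0.94 ± 0.28, adjusted p = 0.0353). Every NEC library was below every control library of its genotype. In CKO both calls were lost on deposited FPKM (adjusted p = 0.0556 for H2-Ab1 and 0.0579 for Cd74), scaled by total reads (0.0935 and 0.104), under quantile normalization (0.0835 and 0.162), with no filter (0.0846 and 0.0838) and without CKO NEC library 1 (0.0824 and 0.0628) or 3 (0.0787 and 0.0725). In flox that of H2-Ab1 was lost with no filter (0.0517) and without flox NEC library 2 (0.0539). Single libraries counted in the class as a whole: leaving out any 1 of the 3 CKO control libraries left 2 class II genes called in CKO, H2-Aa and H2-Eb1, of the 4 above, and leaving out flox NEC library 1 left 3 in flox, those and H2-DMa.

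**Figure D4:**
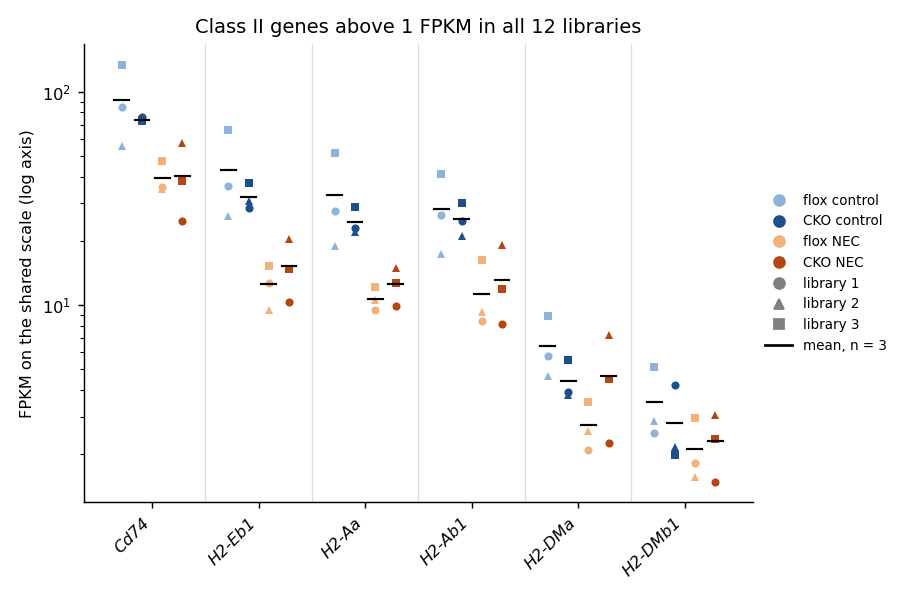
FPKM on the shared scale (log axis) of the 6 class II genes above 1 FPKM in all 12 libraries, by group, with the library number as the marker shape and a bar at the mean of 3. Flox control library 3 is the highest and library 2 the lowest control library in Cd74, H2-Eb1, H2-Aa and H2-Ab1, and the NEC libraries of H2-Aa lie between 9.45 and 14.9 FPKM.

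The peptide editors were scarce. H2-DMa stood at 5.77, 4.64 and 8.88 FPKM in flox control and 2.09, 2.58 and 3.52 in flox NEC (-0.97 ± 0.23, adjusted p = 0.00918). In CKO it stood at 3.90, 3.79 and 5.53 and then 2.25, 7.26 and 4.48, which overlap (-0.02 ± 0.32, adjusted p = 0.965). H2-DMb1 lay between 1.49 and 5.10 FPKM and did not pass in either genotype (-0.52 ± 0.25 and -0.18 ± 0.27, adjusted p = 0.115 and 0.612). Of the transcript stretches of 100 bases, 11.3% of H2-DMb1 and 10.3% of H2-DMb2 are shared between genes.

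H2-DMb2, H2-Ob and H2-Eb2 were scarce in NEC. H2-DMb2 stood at 3.11, 0.735 and 5.81 FPKM in flox control, 1.45, 2.09 and 3.16 in CKO control, 0.669, 0.337 and 0.233 in flox NEC and 0.161, 0.310 and 0.195 in CKO NEC. H2-Ob, a chain of H2-O, stood at 1.04, 0.0886 and 5.30 in flox control, 1.64, 2.15 and 2.58 in CKO control, 0.213, 0.0203 and 0.148 in flox NEC and 0, 0.206 and 0.233 in CKO NEC. For H2-Eb2, 178 reads were counted over the 6 control libraries and 1 over the 6 NEC libraries. Ciita, the class II coactivator, stayed between 0.110 and 1.03 FPKM in all 12. In NEC it was the highest in CKO NEC library 2. It stood at 0.110, 0.674 and 0.112 FPKM in CKO NEC (19, 109 and 16 reads) and 0.289 to 0.418 in flox NEC. H2-Oa, the other H2-O chain, had 8 reads in NEC against 114 in control.

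In flox control the libraries with the most and the least class II message also had the most and the least of the B cell gene Cd79a, a chain of the B cell receptor. Flox control library 3 was the highest of the 6 control libraries in 11 of 11 class II genes and flox control library 2 the lowest in 9 of 11. The shares over all genes are not given here, so these counts do not show a trait of class II genes alone. Cd79a stood at 15.7 FPKM in library 3 of flox control, 1.15 in library 2 and 7.58 in library 1. In CKO control it stood at 6.10, 7.01 and 6.08 FPKM, and in the 6 NEC libraries at 0.0379 to 1.19. The match was not seen in CKO control, where Cd79a differed little. Library 2 had the most Cd79a there but the least H2-Aa (23.0, 22.0 and 28.7 FPKM) and Cd74 (75.9, 72.8 and 73.5). It also had the least H2-Ab1, H2-DMa and H2-Oa of CKO control. H2-Eb2 alone was highest in that library, and the remaining class II genes lay between the other CKO control libraries. Cd79a fell in flox NEC (log2 difference -2.26 ± 0.69, adjusted p = 0.0257 by limma). Its flox NEC levels were 0.185, 0.0880 and 1.19 FPKM, so library 3 alone reached the filter level there and the call carries little weight. In CKO the control libraries alone reached 1 FPKM, so it had to differ and no test is given. The part of B cells in the class II differences was not tested. H2-Aa was at 18.9 FPKM in flox control library 2, where Cd79a was at 1.15, and all 6 NEC libraries were lower, at 9.45 to 14.9. H2-Eb1 was at 26.2 there and at 9.53 to 20.5 in NEC. Other class II genes overlapped: H2-Ab1, Cd74, H2-DMa and H2-DMb1 stood at 17.4, 55.5, 4.64 and 2.87 FPKM in flox control library 2. In CKO NEC library 2 they were higher, at 19.1, 57.8, 7.26 and 3.06.

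Other antigen-presenting cells were followed by their markers. Macrophage markers summed to 142 to 156 FPKM in flox control, 135 to 152 in CKO control, 65.6 to 78.7 in flox NEC and 51.9 to 70.0 in CKO NEC, and 3 of 9 tested fell and 1 rose in flox, 4 of 8 fell and 0 rose in CKO. Over all genes 27.7% fell and 28.6% rose in flox and 20.3% and 17.4% in CKO, so the flox count is near the background. Csf1r, the macrophage growth factor receptor, fell in both (-1.69 ± 0.14 and -1.88 ± 0.16). It was the largest single part of these sums, with means of 70.4 FPKM in flox control and 21.1 in flox NEC. Cd68, C1qa, C1qb, C1qc and Lyz2 also had lower means in NEC in both genotypes. Mrc1, Adgre1 and Cx3cr1 had higher means in NEC in both. In flox these were 1.12, 0.694 and 1.63 FPKM in control and 2.75, 1.13 and 2.10 in NEC. Of 8 dendritic cell markers, 2 were testable in flox and 1 in CKO, and Batf3 fell in flox (-0.69 ± 0.17). Of 10 T and NK cell markers, Trac alone was testable in flox, where it fell (-1.08 ± 0.35), and 0 were in CKO. Ptprc, the leukocyte gene CD45, lay at 0.339 to 2.07 FPKM in control and 0.226 to 0.613 in NEC. Of 6 epithelial markers 3 rose and 2 fell in flox, and 0 rose and 1 fell in CKO, Epcam (-1.14 ± 0.30, adjusted p = 0.0224). All 3 endothelial markers rose in both genotypes, where 28.6% and 17.4% of all genes did, Pecam1 by 1.04 ± 0.16 and 0.69 ± 0.13. What part these shifts have in the MHC differences was not tested.

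Between genotypes in NEC tissue no member passed the test, although CKO was above flox in each class I gene tested. The 18 differences were all above 0, with a median of 0.48 against 0.02 over 13423 genes, and 0 of 18 were called, as were 0% of all genes (limma, and 0 by limma-voom). Unadjusted, 4 of 18 were under 0.05, where 4.39% of all genes were. In 5 genes, H2-Q2, Psmb10, H2-T3, Psmb9 and Psmb8, every CKO library lay above every flox library, against 5.34% of all genes. H2-Q2 had the smallest p, with 41.1, 48.7 and 40.3 FPKM in flox NEC and 65.8, 69.4 and 65.5 in CKO NEC, 0.62 ± 0.12 (adjusted p = 0.846). Psmb10 came next at 0.98 ± 0.30 (adjusted p = 0.846). Without CKO NEC library 2 the median was 0.27, 16 of 17 genes were above 0, and Tap1 and H2-T23 lay at 0.02 ± 0.17 and -0.05 ± 0.19. H2-Q2, Psmb10 and Psmb8 were then at 0.59 ± 0.13, 0.63 ± 0.18 and 0.44 ± 0.19. Class II gave no call either: 5 of 6 genes were above 0 (median 0.18), led by H2-DMa (0.52 ± 0.32, adjusted p = 0.846) and H2-Aa (0.20 ± 0.16, adjusted p = 0.849). Without that library the class II median was -0.04, with 3 of 6 above 0, and H2-DMa and H2-Aa were at 0.20 ± 0.27 and 0.07 ± 0.16.

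In control tissue, 0 of 19 class I genes and 0 of 9 class II genes were called between genotypes, where 0.00747% of all genes were. Of the class I genes 12 were above 0 in CKO and 7 below (median 0.17 against 0.04 over all genes), and 4 were under an unadjusted 0.05, as were 28.9% of all genes. Tapbp was at 79.9, 76.3 and 73.4 FPKM in flox and 106, 101 and 135 in CKO (0.56 ± 0.14, adjusted p = 0.073). H2-Q2 was at 68.0, 106 and 57.3 and then 119, 120 and 179 (0.87 ± 0.27, adjusted p = 0.0934). These 2, H2-T3, H2-K1 and H2-T24 had every CKO library above every flox library, against 21.7% of all genes. In class II 7 of 9 were below 0 (median -0.21), but without flox control library 3 Cd74, H2-Eb1, H2-Aa and H2-Ab1 were above 0, at 0.11, 0.0571, 0.0897 and 0.22. H2-DMa gave -0.43 ± 0.23 (adjusted p = 0.259) and H2-Eb2 0.35 ± 0.36 (adjusted p = 0.549).

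**Figure D5:**
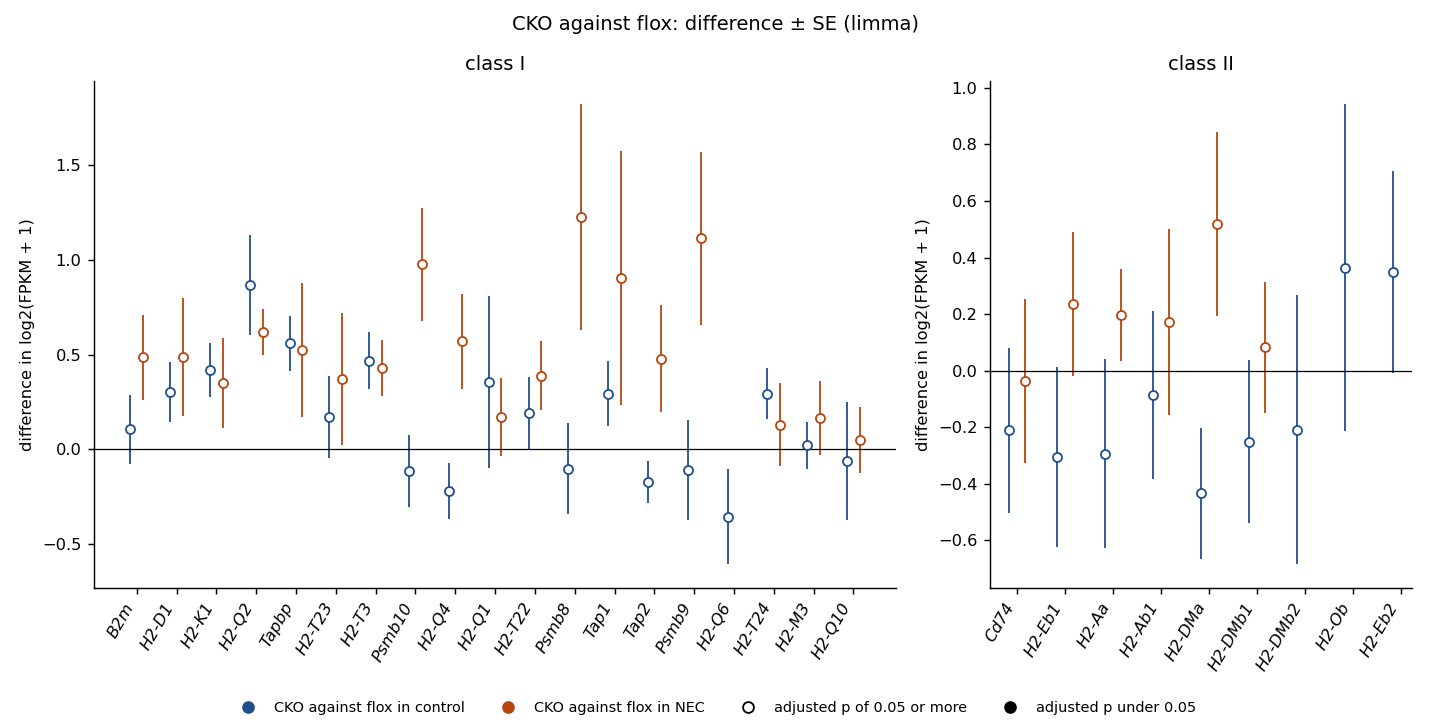
Difference between CKO and flox in log2(FPKM + 1), with its standard error, for every class I and class II gene tested, in control and in NEC. No point is filled, since no adjusted p was under 0.05, and the class I points in NEC all lie above 0, up to 1.23 for Psmb8.

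Ratios within a library do not depend on how libraries are scaled. B2m over the summed class I heavy chains was 0.917 to 0.964 in flox control and 0.741 to 0.852 in CKO control, and 0.510 to 0.595 in flox NEC and 0.467 to 0.619 in CKO NEC, so it was lower in all 6 NEC libraries than in any control library. The summed heavy chains themselves were 1023 ± 84.2 FPKM in flox control, 1324 ± 138 in CKO control, 372 ± 37.0 in flox NEC and 527 ± 145 in CKO NEC (SD, n = 3). The A and E chains over B2m stood at 0.0773 to 0.0824 in CKO control and 0.136 to 0.144 in CKO NEC. In flox they overlapped, at 0.0707 to 0.153 and 0.149 to 0.208. Psmb8 over Psmb5, its constitutive counterpart, was 0.0226 to 0.0388 in flox NEC and 0.0366 and 0.0404 in CKO NEC libraries 1 and 3, but 0.280 in library 2. Psmb9 over Psmb6 ran 0.0232 to 0.0269 and 0.0326, 0.204 and 0.0448. Psmb10 over Psmb7 ran 0.757 to 1.24 in flox NEC and 1.80, 3.69 and 1.48 in CKO NEC, so every CKO NEC library was above flox NEC. Flox control library 3 gave the lowest control ratio for all 3 pairs, 0.0357, 0.0519 and 2.53. The highest control ratios were 0.140, 0.161 and 6.40.

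The rest of the pathway was read from lists of related genes. Of 9 genes of peptide supply and loading, 5 fell and 4 rose in flox, and 4 fell and 2 rose in CKO, against 27.7% and 28.6% of all genes in flox and 20.3% and 17.4% in CKO. Psme1 and Psme2, the interferon-inducible proteasome activator, fell in both, by -1.78 ± 0.18 and -2.04 ± 0.20 in flox and -0.73 ± 0.17 and -0.97 ± 0.17 in CKO. Lnpep, an aminopeptidase of cross-presentation, rose (1.38 ± 0.10 and 0.66 ± 0.12). The constitutive subunits Psmb5 and Psmb6 fell in flox (-1.19 ± 0.24 and -0.76 ± 0.14) and Psmb7 rose (0.69 ± 0.16), with no call among the 3 in CKO.

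Of the transcription factors of the interferon pathways, 3 that fell in both genotypes were Irf1 (-1.90 ± 0.22 in flox and -1.15 ± 0.31 in CKO), Stat2 (-1.90 ± 0.13 and -1.53 ± 0.24) and Irf9 (-1.66 ± 0.13 and -1.44 ± 0.20). Irf2, which binds the same element as Irf1, did not pass in either (-0.17 ± 0.15, adjusted p = 0.356, and -0.18 ± 0.12, adjusted p = 0.277). Irf1 stood at 30.2 to 53.9 FPKM in the 6 control libraries and 9.58 to 12.5 in flox NEC. Jak1 and Jak2, the receptor kinases, rose in flox (0.60 ± 0.11 and 0.99 ± 0.13) and did not pass in CKO (-0.20 ± 0.13, adjusted p = 0.274, and 0.27 ± 0.18, adjusted p = 0.259). The factors at the MHC promoter gave 2 lower and 1 higher of 7 in flox, near the shares of 27.7% and 28.6% over all genes, and 3 and 1 in CKO, against 20.3% and 17.4%. Rfxank and Nfya, subunits of RFX and NF-Y, fell in both (-0.99 ± 0.14 and -0.71 ± 0.10 in flox), while Rfx5 stayed at 1.70 to 2.21 FPKM in all 12 (-0.04 ± 0.11 and -0.01 ± 0.13, adjusted p = 0.749 and 0.939).

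The 5 genes of endosomal processing, the proteases Ctss, Ctsl, Ctsb and Lgmn and the thiol reductase Ifi30, all fell in both genotypes, where 27.7% and 20.3% of all genes did. Ctss, the protease that trims the invariant chain, stood at 244, 275 and 289 FPKM in flox control, 48.0, 43.3 and 52.2 in flox NEC, 347, 378 and 542 in CKO control and 40.5, 78.0 and 88.2 in CKO NEC (-2.47 ± 0.12 and -2.65 ± 0.32). Ctsl fell by 3.79 and 4.41 on the log2 scale (-3.79 ± 0.29 and -4.41 ± 0.31). Of the MHC-like genes, Fcgrt, the neonatal Fc receptor of the suckling gut, fell by -3.19 ± 0.25 and -3.65 ± 0.26, and Cd1d1, which presents lipids, differed by -0.33 ± 0.11 in flox (adjusted p = 0.0378) and 0.17 ± 0.18 in CKO (adjusted p = 0.5). Of the co-stimulation genes Cd80, Cd86, Cd40 and Cd274, 0 were testable in flox and Cd274 in CKO, with -0.06 ± 0.49 (adjusted p = 0.929).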

How the data were processed

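RNA from small intestine was isolated with Trizol and made into NEBNext Ultra II libraries, per the labels' protocols. The authors deposited FPKM per gene in 2 tables, control and NEC. The labels name no aligner, counter or genome build; 98.3% of the coordinates matched GENCODE M21 (GRCm38). FPKM times gene length came out as whole multiples of a library-specific step (100% of values, tolerance 0.05), which returned the reads per gene. These were divided by gene length and by median-of-ratios size factors over the 12 libraries. Deposited values were 0.967 to 0.970 times this shared scale in control and 1.06 to 1.09 times in NEC.

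Genes with at least 1 FPKM in 3 of the libraries compared were tested on log2(FPKM + 1) with limma 3.58.1 (R 4.3.3), with a variance trend and Benjamini-Hochberg adjustment over all genes at 0.05. Each comparison used its 6 libraries, and the interaction all 12. The test was tried on simulated data. Alternatives changed the pseudocount (0.1), the filter (none, or a mean of at least 5 FPKM), the scaling, the tool (limma-voom), the trend, the replicate block, the pooling of groups and each library. Other work used Python 3.11.15, numpy 2.4.6, pandas 2.3.3 and matplotlib 3.10.9. Members, lists and tests were chosen with earlier results of these data known. Members with a mean of at least 5 FPKM or a call are given in every library, the others by range, and the 2 with the smallest p where a class had no call. From the other lists, Ifng, Irf1, Rfx5, Ctss, Cd1d1, Fcgrt, Ptprc, Epcam and up to 2 called genes a list are named. Results of 2 genes of these lists, and list counts and sums that need them, are not reported here. Socs1, Cd274, Irf2, Ifngr1, Ifngr2, Jak1, Jak2, Psme1, Psmb7, Vil1, Cd3e, Gzma, Pax5, Cr2 and the windows shown were chosen after their values were seen. Deviations of same-numbered libraries correlated between -0.12 and 0.36, so the numbers were not taken as pairs. Leaving out each library was an alternative, and its use for CKO NEC library 2 in the text was chosen after the values were seen.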

Additional observations from a re-analysis of the deposited data

How the results depend on the processing

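The counts of class I genes lower in NEC stayed between 11 and 17 in flox and 9 and 10 in CKO over the other settings (16 and 10 as reported), and those of class II between 4 and 6 and between 4 and 7. Leaving out 1 library gave 9 to 16 class I genes lower in CKO, with 16 without CKO NEC library 2, and 2 to 6 class II genes lower in CKO, with 2 without any 1 CKO control library. The 6 reported there include H2-Ob and H2-DMb2, which had to differ. So did H2-Q6, 1 of the 16 without CKO NEC library 2, since CKO control alone then reached 1 FPKM. In flox it gave 3 to 5 class II genes lower, with 3 without flox NEC library 1. Fitting all 4 groups together called 1 class I gene higher in CKO control, H2-Q2 (0.87, adjusted p = 0.0276). The causes were not tested. The labels do not state whether libraries of the same number are pairs, and they were not taken as pairs. With the replicate block the class II counts lower in NEC were 6 in flox and 5 in CKO, where H2-Ab1 was lost (adjusted p = 0.0547). The same filter let in H2-Ob and H2-DMb2 in CKO, through control alone. Over all genes the block called 909 genes between genotypes in control tissue against 1 without it. That count was also 734 by limma-voom, 756 with a mean of at least 5 FPKM, 2084 with all 4 groups in 1 fit, 817 without flox control library 3, and 0 with no filter. The interaction called 114 genes, and 6 with no filter, 352 with a mean of at least 5 FPKM, 181 on deposited FPKM, 39 with equal medians, 245 under quantile normalization and 5 with no trend. Leaving out 1 library gave 0 to 2 for 9 of the 12, and 44, 286 and 529 for CKO NEC, CKO control and flox control library 3. In flox and CKO, a mean of at least 5 FPKM called 4899 and 3259 genes of 7671 and 7686 tested, against 7780 and 5060 of 13815 and 13431. The 5060 were 3306, 3093 and 3030 without CKO control library 2 and CKO NEC libraries 1 and 2.

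The median of all genes moved from 0.01 to 0.14 in flox and from -0.02 to 0.10 in CKO on deposited FPKM, and to 0.23 and 0.24 scaled by total reads, where the class I medians were -1.06 and -0.57. H2-Q1 turned to 0.042 (deposited) and 0.14 (total reads) in flox, and by total reads in CKO to 0.0104, as did Tap1 to 0.0101 and Psmb10 to 0.0392 (0.0209 under quantile normalization). Leaving out 1 library, values that changed sign ranged in NEC against control from -0.28 to 0.0715 for H2-Q1 in flox, and in CKO from -0.62 to 0.27 for H2-Q1 and -1.16 to 0.24 for Tap1. Between genotypes in NEC they ranged from -0.33 to 0.26 for Cd74, -0.0454 to 0.71 for H2-T23, -0.13 to 0.44 for H2-Ab1 and -0.0158 to 0.36 for H2-Q1. In control they ranged from -0.32 to 0.0246 for Psmb10, -0.35 to 0.12 for Psmb8, -0.52 to 0.11 for Cd74, -0.60 to 0.0571 for H2-Eb1, -0.62 to 0.0897 for H2-Aa, -0.38 to 0.22 for H2-Ab1, -0.0398 to 0.18 for B2m, -0.0712 to 0.33 for H2-T23, -0.20 to 0.69 for H2-Q1 and -0.0108 to 0.30 for H2-T22.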

Other observations

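Rows outside the rule were looked at as values only. The tables hold 11 more H2 rows of other biotypes, 7 unprocessed and 1 processed pseudogene and 3 polymorphic pseudogenes. The pseudogene H2-K2 stood at 11.4 to 27.3 FPKM in the 6 control libraries and 4.75 to 9.78 in the 6 NEC libraries, which do not overlap. H2-Bl, a polymorphic pseudogene of the T region, stood at 2.51 to 7.93 and 0.561 to 1.64. H2-Ea-ps, the E alpha pseudogene of this strain, was listed at 0 in all 12 libraries. H2-T10, a polymorphic pseudogene that shares 6.92% of the 100-base stretches of H2-T22 transcripts, stood at 0.355 to 0.897 FPKM in control and 0.136 to 0.380 in NEC.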
